A study of Bos taurus with 3 samples.

Results

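The cadherin superfamily comprises the cadherins, desmosomal cadherins, Fat, Dachsous and CELSR proteins and the protocadherins. In bovine fetal fibroblasts its genes were taken as every row of the deposited count table whose symbol names one of these families, which gave 65 of 31903 listed genes. The rule used gene names only, but it was set with earlier results of these data known. The cells were BFF116, a culture of bovine fetal fibroblasts whose nuclei are transferred into oocytes to make cloned embryos. There was 1 group of 3 replicate libraries of total RNA, all from cells starved of serum for 48 h to synchronize the cell cycle. No unstarved cells and no other cell type were measured, so the levels below describe starved donor cells and are set against no other condition. The labels call the replicates biological and do not say whether they came from separate cultures or animals. The spread between them may therefore be partly technical.

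Cadherins are membrane proteins that hold cells together by binding, through calcium-dependent extracellular repeats, to cadherins on the neighbouring cell. Classical cadherins are tied to actin through catenins, and desmosomal cadherins to intermediate filaments through plaque proteins. Fat, Dachsous and CELSR proteins are giant members that carry polarity signals across a tissue, and protocadherins act in cell sorting and recognition, best known in neurons. Mesenchymal cells such as fibroblasts are known for CDH2 (N-cadherin) and epithelial cells for CDH1 (E-cadherin).

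Gene counts were 8608350, 4842331 and 7122651 reads in replicates 1 to 3. Levels are CPM, counts per 1000000 counts of a library scaled for its composition, given as mean ± SD of 3 libraries. A gene counts as measured where each of the 3 libraries reached 1 CPM, and 0 reads allow up to 0.356, 0.605 and 0.422 CPM in replicates 1 to 3, from counting error only. CPM was not divided by transcript length, for which no value was at hand, so an order of genes by CPM is an order of reads and not of transcripts. The fibroblast identity on the labels fitted the marker genes: 10 of 10 fibroblast markers were measured, with a median of 7443 CPM, and 0 of 11 epithelial markers were, with EPCAM, CLDN3, CLDN4, CLDN7 and GRHL2 at 0 reads. Of 8 endothelial markers 3 were measured, of 8 neural markers 4, of 6 leukocyte markers 2 and of 5 skeletal muscle markers 0. Summed endothelial markers stood at 9.47 to 27.3 CPM and summed neural markers at 18.3 to 27.6 CPM across the libraries, and their part in the low levels of single cadherin genes was not tested.

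Of the 65 genes, 22 (33.8%) were measured, against 34.6% of all listed genes and 57% of the 17257 genes whose symbol is not a LOC number. Another 22 had reads without reaching that level, and 21 had 0 reads in all libraries. Over all 31903 listed genes, 18039 had a read in some library and the rest had 0. The median level of the 65 genes was 0.659 CPM, against 0.134 CPM over all listed genes and 4.27 CPM over those not named by a LOC number. Of the measured genes 6 averaged 100 CPM or more, namely FAT4, FAT1, PCDH18, CDH2, CDH13 and PCDH7. A further 7 stood between 10 and 100 CPM and 9 below 10 CPM. Those 6 genes held 91.1, 87.8 and 88.0% of the family's reads in replicates 1 to 3, a mean of 89.0% ± 1.87. This is a share of reads, in which long transcripts such as those of the FAT genes weigh more. The whole family took 0.241% ± 0.0180 of gene counts.

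**Figure D1:**
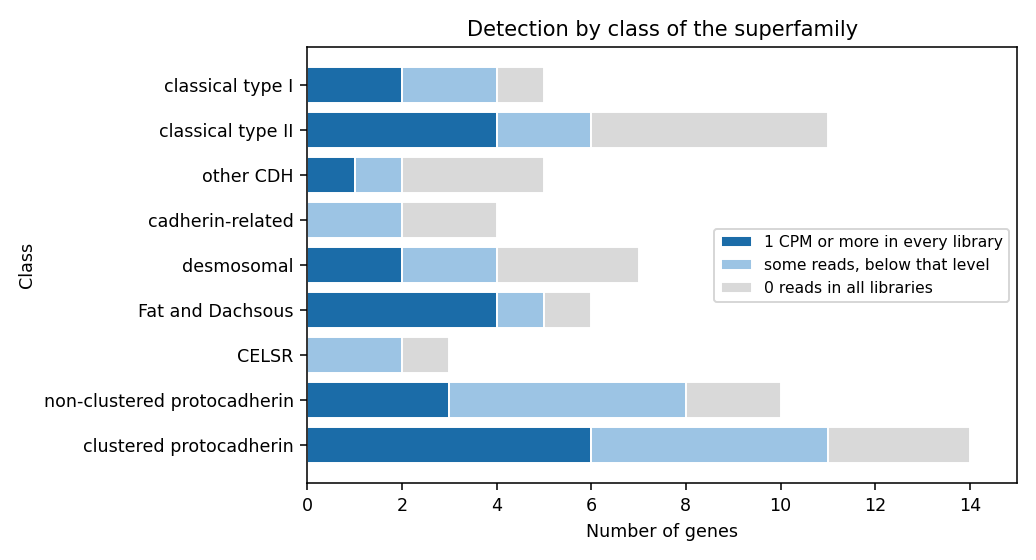
Number of genes of each class (vertical axis) that reached 1 CPM in each of the 3 libraries (dark bars), had reads below that level (light bars) or had 0 reads in all 3 libraries (grey bars). Measured genes occurred in 7 of the 9 classes, and the cadherin-related (CDHR) and CELSR classes had 0.

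The classical type I cadherins, which bind catenins and form adherens junctions, had 2 measured genes of 5, CDH2 and CDH3. CDH2 had 2048, 1338 and 1982 reads in replicates 1 to 3, or 243, 269.6 and 279 CPM (264 ± 18.5). The libraries lay close together, with the highest 1.15-fold above the lowest. CDH3 (P-cadherin), known from basal epithelial cells, had 27, 29 and 39 reads, or 3.21, 5.84 and 5.49 CPM, and was lowest in replicate 1. CDH1 had 5, 4 and 6 reads, under 1 CPM in each library. In the RefSeq annotation of the ARS-UCD2.0 assembly CDH3 and CDH1 are neighbouring protein-coding genes, of which CDH3 was measured and CDH1 was not. CDH4 (R-cadherin) had 2, 0 and 1 reads, and the muscle cadherin CDH15 had 0.

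Of the 11 type II classical cadherins with a row, 4 were measured, all below 10 CPM in the mean. Type II cadherins are known chiefly from neurons and mesenchyme. Other type II genes, among them ones known from mesenchyme, were not analysed here, so these 11 do not stand for the whole type. CDH8 had 39, 26 and 20 reads, or 4.63, 5.24 and 2.81 CPM. CDH18 had 35, 24 and 24 reads, or 4.16, 4.84 and 3.38 CPM. Both were lowest in replicate 3. CDH10 had 54, 11 and 8 reads, or 6.41, 2.22 and 1.13 CPM, so that replicate 1 stood 5.70-fold above replicate 3. Without replicate 1 CDH10 averaged 1.69 CPM in place of 3.25. CDH6, a cadherin of kidney and neural crest cells, had 17, 22 and 8 reads, or 2.02, 4.43 and 1.13 CPM, a mean of 2.53 CPM that was 1.55 CPM without replicate 2. These levels rest on few reads. CDH10 and CDH6 had fewer than 10 reads in replicate 3 and so entered the test of spread between replicates only under 3 alternative settings, where neither passed (adjusted p from 0.993 to 1.00 for each, with edgeR's dispersion trend). Of the other type II genes, CDH24 had 3, 4 and 4 reads and CDH7 had 6, 0 and 0. CDH9, CDH12, CDH19, CDH20 and CDH22 had 0 reads.

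CDH13 (T-cadherin), which lacks the transmembrane and catenin-binding parts and is held in the membrane by a lipid anchor, was read steadily in all libraries. It had 1789, 1062 and 1693 reads, or 213, 214 and 238 CPM (222 ± 14.4). Its reads per read of CDH2 were 0.874, 0.794 and 0.854, with exact 95% intervals from counting of 0.819 to 0.931, 0.732 to 0.861 and 0.800 to 0.912, which overlap. These ratios also carry the lengths of both transcripts and are compared only between libraries. Among the remaining cadherins with less usual structure, CDH26 had 2, 0 and 2 reads. CDH16 and CDH17, known from kidney and intestinal epithelium, and CDH23, a part of the tip links of hair cells, had 0. Of the 4 CDHR genes, which include cadherins of the photoreceptor and of the intestinal brush border, 0 were measured. CDHR4 came nearest with 5, 5 and 17 reads, or 0.594, 1.01 and 2.39 CPM, CDHR2 had 0, 3 and 0 reads, and CDHR1 and CDHR3 had 0.

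The desmosomal cadherins showed 2 measured genes of 7, both desmocollins. DSC2, the most widely expressed desmocollin, had 387, 205 and 266 reads, or 46.0, 41.3 and 37.4 CPM (41.6 ± 4.28). DSC3, known from stratified epithelia, had 84, 46 and 91 reads, or 9.98, 9.27 and 12.8 CPM (10.7 ± 1.87). The libraries differed little in either gene. DSC2 had 4.61, 4.46 and 2.92 reads per read of DSC3, with exact 95% intervals from counting of 3.63 to 5.91, 3.22 to 6.28 and 2.30 to 3.75. Of the desmogleins, with which desmocollins pair in desmosomes, DSG1 had 20, 6 and 5 reads, or 2.38, 1.21 and 0.704 CPM. DSG2, the desmoglein of simple epithelia and heart muscle, had 12, 4 and 0 reads, and DSG3, DSG4 and DSC1 had 0.

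In the ARS-UCD2.0 annotation these genes form an unbroken row of 8 protein-coding genes with CDH2 at one end, in the order DSG2, DSG3, DSG4, DSG1, DSC1, DSC2, DSC3 and CDH2. The 3 measured genes of the row were DSC2, DSC3 and CDH2, which stand next to each other, and the other 5 were below 1 CPM in at least 1 library. The genome build behind the counts is not given in the sources used here, and only the order of genes was taken from this annotation.

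**Figure D2:**
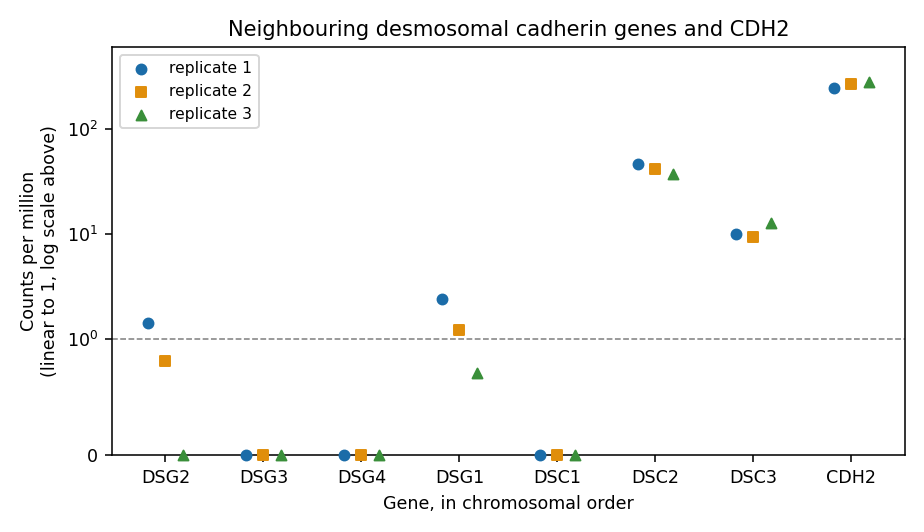
CPM of each replicate (vertical axis, linear up to 1 and logarithmic above) for the 8 neighbouring genes from DSG2 to CDH2 in chromosomal order, with a dashed line at 1 CPM. DSC2, DSC3 and CDH2 lie above the line in every replicate, and DSG3, DSG4 and DSC1 lie at 0.

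Of the desmosome list, made of plaque genes and PERP, 3 of 5 genes in the table were measured. PPL (periplakin) stood at 73.4, 67.7 and 87.0 CPM, PERP, a membrane protein of desmosomes, at 10.1, 3.22 and 5.77 CPM, and PKP2 (plakophilin 2) at 3.68, 5.04 and 3.94 CPM. DSP, the gene of desmoplakin, which anchors intermediate filaments at the desmosome, had 3, 4 and 4 reads, and EVPL (envoplakin) had 0. The median of this list was 4.22 CPM, beside 4.27 CPM over genes not named by a LOC number. Of the latter 57% were measured, and both values also apply to the partner lists below. DSC2 and DSC3 were thus read beside PPL, PERP, PKP2 and JUP (given below) that were measured. DSP and DSG2 were below the measured level, DSG1 fell short of it in replicate 3 only, and DSG3, DSG4, DSC1 and EVPL were at 0.

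The partners of classical cadherins were measured in 9 of 12 genes, with a median of 41.1 CPM. CTNNB1 (beta-catenin) stood at 489.6, 519 and 483 CPM, CTNNA1 (alpha-catenin, the link to actin) at 444, 449 and 465 CPM, and CTNND1 (p120-catenin, which holds cadherins at the membrane) at 145, 160.4 and 176 CPM. Vinculin (VCL), which also serves cell-matrix adhesions, stood at 1011, 1019 and 1229.8 CPM. MLLT4 (afadin) averaged 50.0 ± 10.8, CTNNAL1 48.2 ± 7.55 and PKP4 34.1 ± 4.91 CPM. CTNNA2, an alpha-catenin best known from neurons, was measured at 27.2, 24.8 and 43.9 CPM. JUP (plakoglobin), a catenin shared by adherens junctions and desmosomes, stood at 11.5, 25.0 and 24.9 CPM and was lowest in replicate 1. ARVCF had 0, 4 and 0 reads, CTNNA3 had 1, 0 and 0, and CTNND2 had 0. The proteases that trim cadherins were measured in 6 of 6 genes reported, with a median of 51.1 CPM. These were FURIN (13.8 ± 2.42), which removes the propeptide, ADAM10 (96.9 ± 17.8), which sheds the extracellular part, and the gamma-secretase genes PSENEN (142 ± 14.2), NCSTN (88.4 ± 22.4), APH1A (10.4 ± 2.18) and PSEN2 (7.97 ± 2.61).

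**Figure D3:**
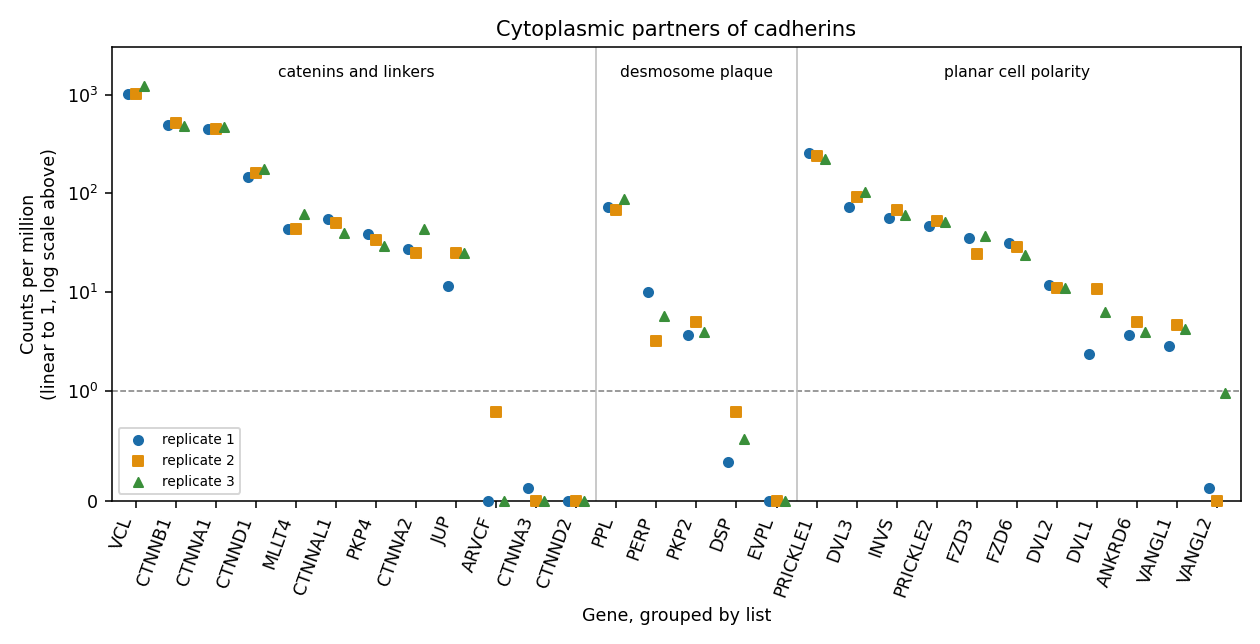
CPM of each replicate for catenins and linkers, desmosome plaque genes with PERP, and planar cell polarity genes, ordered by mean within each list. The vertical axis is linear up to 1 and logarithmic above, and a dashed line marks 1 CPM. The catenins CTNNB1, CTNNA1 and CTNND1 lie above 100 CPM in every replicate, and DSP lies below 1 CPM in every replicate.

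Among the Fat and Dachsous genes 4 of 6 were measured. FAT4 is the receptor of the Fat and Dachsous polarity pathway and DCHS1 its ligand, both required in mammalian tissue patterning, whereas FAT1 acts in actin organization and cell migration. FAT4 had 6947, 2224 and 2980 reads, or 825, 448 and 419 CPM (564 ± 226). Replicate 1 stood apart from the other 2, 1.97-fold above replicate 3. FAT1 had 4820, 2273 and 4021 reads, or 573, 458 and 566 CPM (532 ± 64.2), with replicate 2 lowest. DCHS1 had 418, 352 and 561 reads, or 49.7, 70.9 and 78.9 CPM (66.5 ± 15.1), and was lowest in replicate 1. FAT3, known from neurons, was low and even, with 14, 9 and 10 reads, or 1.66, 1.81 and 1.41 CPM. DCHS2 had 0, 2 and 1 reads and FAT2, a gene of skin and cerebellum, had 0.

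The balance of these genes differed between libraries by more than counting error. FAT4 had 1.44 reads per read of FAT1 in replicate 1 (exact 95% interval 1.39 to 1.50), 0.978 in replicate 2 (0.922 to 1.04) and 0.741 in replicate 3 (0.707 to 0.777). Per read of its ligand gene DCHS1, FAT4 had 16.6 reads in replicate 1 (15.1 to 18.4), 6.32 in replicate 2 (5.64 to 7.09) and 5.31 in replicate 3 (4.85 to 5.82). These intervals cover counting only, and the spread of FAT4 did not pass the test between replicates (adjusted p = 0.781, negative binomial statistic with edgeR's dispersion trend). Replicate 1 was also the deepest library, and the part of depth was not tested.

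The 3 CELSR genes, mammalian counterparts of fly Flamingo in planar cell polarity, were not at the measured level. CELSR3 had 5, 8 and 11 reads, or 0.594, 1.61 and 1.55 CPM, CELSR1 had 8, 3 and 3 reads, and CELSR2 had 0. Of the other planar polarity genes 10 of 11 were measured, with a median of 28.0 CPM. PRICKLE1 (239 ± 16.9), DVL3 (89.0 ± 15.7), INVS (61.3 ± 5.56) and PRICKLE2 (50.2 ± 3.12), which act in the cytoplasm, had the most reads. The frizzled receptors FZD3 and FZD6 averaged 32.3 ± 6.95 and 28.0 ± 3.99 CPM. VANGL1, a membrane partner of PRICKLE proteins, had 24, 23 and 30 reads (3.90 ± 0.934 CPM), and VANGL2 had 1, 0 and 7 reads.

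Protocadherins outside the gene clusters were represented by 3 measured genes of 10. PCDH18, a delta2 protocadherin, had 3037, 1793 and 2371 reads, or 361, 361 and 334 CPM (352 ± 15.8). It varied least of the 22 measured genes, with a coefficient of variation of 4.50%. PCDH7, a delta1 protocadherin, had 1802, 912 and 1696 reads, or 214, 184 and 239 CPM (212 ± 27.5), with replicate 2 lowest. PCDH18 had 1.69, 1.97 and 1.40 reads per read of PCDH7 in replicates 1 to 3, with exact 95% intervals from counting of 1.59 to 1.79, 1.81 to 2.13 and 1.31 to 1.49. PCDH9, another delta1 gene, had 25, 10 and 67 reads, or 2.97, 2.02 and 9.43 CPM. Replicate 3 lay 4.68-fold above replicate 2, and without it the mean was 2.50 CPM in place of 4.80.

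The other protocadherins of this kind gave few reads. PCDH17 had 6, 4 and 6, PCDH10 had 0, 1 and 8, PCDH1 had 4, 0 and 6, PCDH19 had 5, 1 and 1, and PCDH12, a protocadherin of endothelium, had 1, 1 and 3. PCDH8 and PCDH15, the tip-link partner of CDH23, had 0. Among the 65 genes, 1 of 5 delta2 genes was measured, and 2 of 3 delta1 genes were. PCDH11X, a delta1 gene whose symbol fell outside the choice of genes, was also measured and is given at the end. The WAVE complex, which delta2 protocadherins recruit to reorganize actin, and the kinases PTK2 and PTK2B, which clustered protocadherins inhibit, were measured in 8 of 11 genes, with a median of 69.1 CPM. NCKAP1 stood at 352, 256 and 193 CPM, WASF2 at 134, 223 and 283 CPM, CYFIP1 at 99.6 ± 6.89 and ABI1 at 82.8 ± 11.3 CPM. CYFIP2 (1, 13 and 7 reads), WASF3 (2, 3 and 6) and WASF1 (7, 1 and 3) were not at that level.

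The clustered protocadherins, whose variable first exons are chosen cell by cell in neurons, had 6 measured genes of 14. All 4 gamma genes in the table were measured. PCDHGC3, a C-type gene that is expressed more widely than the others, had 316, 253 and 390 reads, or 37.5, 51.0 and 54.9 CPM (47.8 ± 9.10). PCDHGA2 had 171, 101 and 178 reads, or 20.3, 20.4 and 25.0 CPM. PCDHGB4 had 100, 88 and 94 reads, or 11.9, 17.7 and 13.2 CPM. PCDHGA8 had 84, 46 and 104 reads, or 9.98, 9.27 and 14.6 CPM. Summed, these 4 gamma genes stood at 79.7, 98.3 and 108 CPM (95.3 ± 14.3), which is not a level of the whole cluster. The single gamma levels are uncertain, because gamma transcripts share their last exons, and how the annotation assigned reads there is not given in the sources used here.

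Of 7 beta genes 2 were measured, PCDHB15 with 41, 39 and 24 reads (4.87, 7.86 and 3.38 CPM) and PCDHB11 with 26, 8 and 13 reads (3.09, 1.61 and 1.83 CPM). PCDHB8 had 40, 6 and 7 reads, or 4.75, 1.21 and 0.985 CPM, so it fell short in replicate 3 only. PCDHB12 had 6, 4 and 9 reads, PCDHB14 had 7, 7 and 5, PCDHB16 had 5, 0 and 9, and PCDHB1 had 0. The summed beta level was 14.8, 12.9 and 9.43 CPM. Beta genes are near copies of each other, and reads with several alignments, 7.52 to 7.99% of each library's total, are missing from the counts. Of 3 alpha genes 0 were measured: PCDHA13 had 8, 3 and 4 reads, and PCDHA3 and PCDHA6 had 0. Genes that govern the choice of promoters in these clusters were measured in 8 of 8, against 57% of genes not named by a LOC number. CTCF stood at 103, 101 and 92.0 CPM (98.7 ± 5.88). The cohesin subunits RAD21 and SMC1A stood at 150, 147 and 153 CPM (149.9 ± 2.93) and at 49.2, 58.6 and 64.4 CPM (57.4 ± 7.71). The cohesin loader NIPBL stood at 435, 254 and 229 CPM, the cohesin genes SMC3 at 305, 201 and 139 and STAG1 at 174, 113 and 75.8 CPM, the cohesin release factor WAPAL at 299, 234 and 205 CPM, and SMCHD1, a silencer of these clusters, at 135, 80.0 and 55.0 CPM. These 5 were highest in replicate 1, as FAT4, CTCF and 39.5% of all measured genes were. None of the 5 passed the test of spread (lowest adjusted p = 0.781, SMCHD1, negative binomial statistic with edgeR's dispersion trend). The summed beta genes were also highest in replicate 1. Of the single beta genes, PCDHB8 and PCDHB11 were highest there, PCDHB14 and PCDHB15 in replicate 2, and PCDHB12 and PCDHB16 in replicate 3. The alpha level, all from PCDHA13 (0.950, 0.605 and 0.563 CPM, from few reads), was highest in replicate 1. The sum of the 4 gamma genes in the table was lowest in replicate 1, and SMC1A was too. No link between these genes and the clusters was tested.

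**Figure D4:**
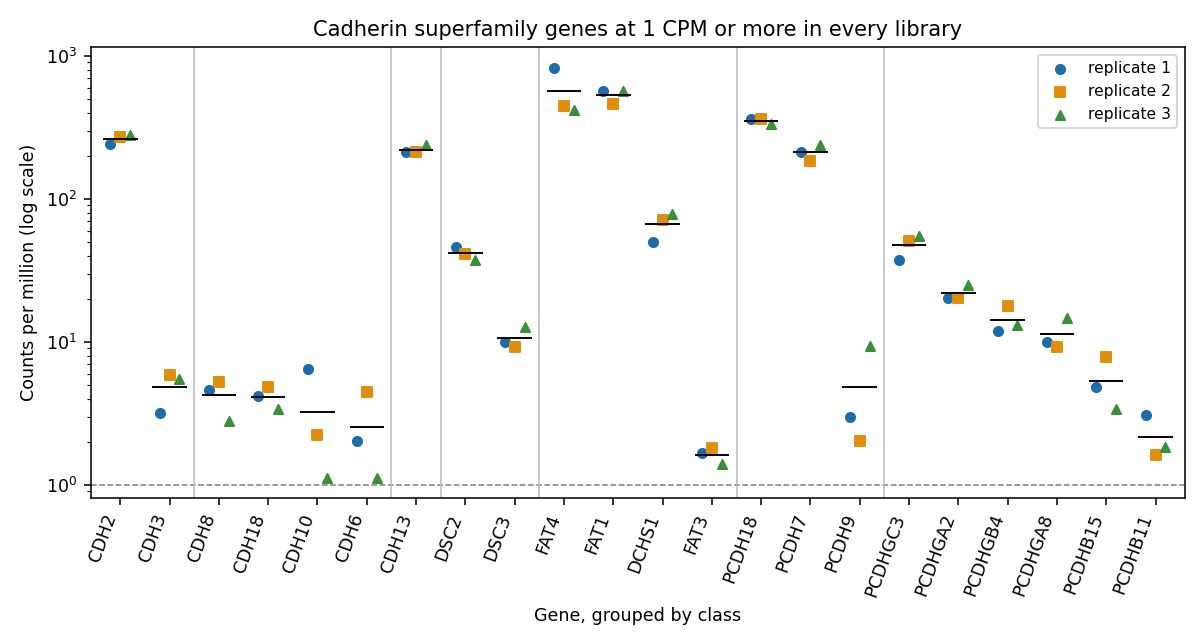
CPM (vertical axis, log scale) of the 22 measured genes in each replicate (points) with the mean of the 3 replicates (black lines), grouped by class and ordered by mean within a class. FAT4, FAT1, PCDH18, CDH2, CDH13 and PCDH7 lie above 100 CPM in every replicate.

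Genes close to the threshold rest on single libraries. Judged by their lowest library, CDH6 and CDH10 (both 1.13 CPM) and FAT3 (1.41 CPM) lay just above 1 CPM, and PCDHB8 (0.985 CPM), PCDHB12 and PCDH17 (both 0.713 CPM) just below. CDHR4 and CELSR3 passed when replicate 1 was left out, and DSG1 and PCDHB8 when replicate 3 was.

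The spread between replicates was tested on genes with 10 or more reads in every library, which 18 of the 65 genes had. With edgeR's dispersion trend, 0 of the 18 were more variable than genes of like abundance at an adjusted p under 0.05, against 0.0192% of the 10434 genes tested. At an unadjusted p under 0.05 there were 2, FAT4 and PCDH9 (adjusted p = 0.781 and 0.651 with edgeR's trend), and the share over all genes tested was 5.24%. With DESeq2's dispersion trend the numbers were 0 and 2. In simulated data for 10434 genes, a 2-fold rise in 1 replicate was found in 8 of 100 genes. A 4-fold rise was found in 63 of 100. Raised genes were drawn from all levels tested, so most 2-fold rises were missed over genes at large. The share missed at the level of FAT4 was not simulated apart. The median coefficient of variation was 18.4% over the 18 genes and 22.4% over all genes tested. Of the 22 measured genes 5 were highest in replicate 1, 8 in replicate 2 and 9 in replicate 3, against 39.5, 23.8 and 36.7% of all measured genes.

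**Figure D5:**
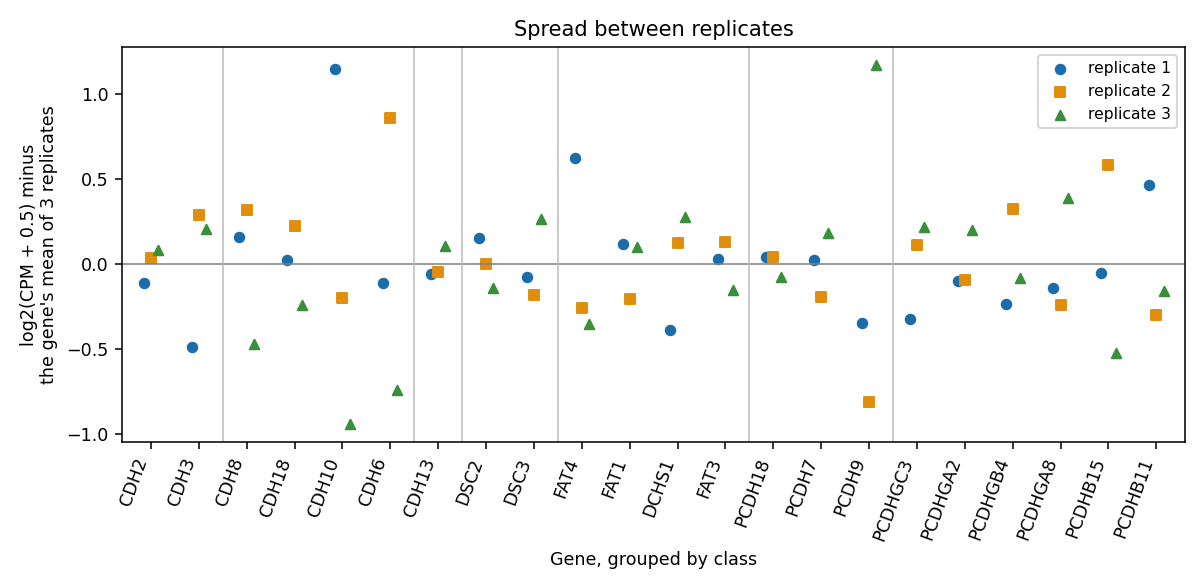
Deviation of each replicate from the gene's mean on the log2(CPM + 0.5) scale (vertical axis) for the 22 measured genes, grouped by class. PCDH18, CDH2 and CDH13 lie close to 0, FAT4 and CDH10 are highest in replicate 1, and PCDH9 is highest in replicate 3.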

How the data were processed

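The authors deposited raw read counts, whole numbers with no scaling, in 1 column for each of 3 replicates. The table has 0 columns of other samples. Per the submitters' processing notes, the tools included bcl2fastq 2.18.0.12, and TopHat2 (2.0.10) and also HTSeq (0.6.1) are named. Per the labels' protocols, cDNA was amplified by a single-primer isothermal method, and libraries received 10 PCR cycles and were read as single reads of 100 bases. Genome build, annotation, counting mode and strandedness: not given in the sources used here. For that reason overlapping and antisense genes cannot be told apart. The 5 summary rows that name no gene were left out of library sizes. Reads in no gene were 58.9 to 62.0% of each library's total, and reads over several genes 0.235 to 0.253%.

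CPM came from edgeR 4.0.16 (R 4.3.3), whose TMM factors were 0.978, 1.02 and 0.998. Spread was tested with edgeR's trended dispersion and the Pearson statistic of a negative binomial fit, referred to chi-square, with Benjamini-Hochberg adjustment over 10434 genes. DESeq2 1.42.0 gave an alternative trend and scaling. The planned log2 ratios per coding length were not computed, since no coding lengths were at hand. Read ratios by library took their place and were chosen after the data were seen. Gene order came from RefSeq (ARS-UCD2.0), where 57 of 65 symbols matched. Members and lists were chosen with earlier results of these data known. Named genes were all measured members, members with 5 or more reads, and the 4 highest and all unmeasured genes of each partner list. Others were named afterwards. An item of the partner lists is not reported here. Intervals and limits include only the error of counting, because PCR copies could not be recognised without molecular identifiers.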

Additional observations from a re-analysis of the deposited data

How the results depend on the processing

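The count of 22 measured genes was 22 with DESeq2's size factors and with total gene counts, 22 to 24 without 1 replicate (which eases the rule), 31 at 0.5 CPM, 18 at 2 CPM and 26 by the mean. The count of genes more variable than the trend was 0 under each of the 8 alternatives, against 0 to 0.0564% of all genes tested. Without replicate 2 and without replicate 3 no gene of the whole table was called, so 0 was certain there. Adjusted p of the negative binomial statistic ran from 0.753 to 1.00 for FAT4 and from 0.647 to 1.00 for PCDH9. Other scalings moved mean levels of the measured genes by factors of 0.991 to 1.01, and leaving out 1 replicate by 0.519 to 1.33. PCDH9, CDH10 and CDH6 moved by more than 1.5 times. The share of family reads of the 6 genes at 100 CPM or more was 87.9 to 89.6% without 1 replicate. No level is given as a mean on the log2 scale, so other pseudocounts were not run. No paired analysis was possible because the series has 1 group. Genes under 10 reads in some library entered the test of spread only when its filter was relaxed or a replicate left out, and depth limits what it can show for them.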

Other observations

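Some relatives whose symbols fall outside the rule were read in these cells. PCDH11X, a delta1 protocadherin gene of the X chromosome, had 1366, 593 and 518 reads, or 162, 119 and 72.9 CPM (118 ± 44.7), highest in replicate 1. CLSTN1 (calsyntenin 1), a cadherin-like protein of vesicle transport, had 902, 525 and 883 reads, or 107, 106 and 124 CPM (112 ± 10.3), and CLSTN2 and CLSTN3 had 0. Neither PCDH11X nor CLSTN1 was more variable than the trend at an adjusted p under 0.05 with edgeR's dispersion trend. Both were named after their values were seen.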
